A study of Macaca nemestrina with 15 samples.

Results

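Type I interferon-stimulated genes (ISGs) were followed in the PBMCs of 5 female pig-tailed macaques given islatravir (ISL), a nucleoside reverse transcriptase translocation inhibitor. Type I interferons bind a receptor found on nearly all nucleated cells, and the receptor's kinases phosphorylate STAT2, which joins IRF9 in a complex that enters the nucleus and turns on a large set of genes. Their products sense viral RNA, block its translation, degrade it, or tag proteins with ISG15. In blood the genes are widely used together as a reading of recent exposure to interferon, and they rise and fall within days.

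The 40 genes described here were listed by name as classical ISGs, and no measured value entered the rule. Earlier results of these data were known when the list was chosen. The count table held 37 of them under these names, out of 28865 features, and all 37 passed the filter on low counts that left 12880 features for testing. *IFIT1*, *SAMD9L* and *USP18* were not found under these names and were not analysed here. By role the 37 were 4 RNA sensors, 8 enzymes that act on nucleotides or RNA, 5 effectors of the IFIT, MX and SAMD9 families, 4 genes of the ISG15 pathway or ubiquitin ligases, 3 PARP genes, 4 transcription regulators and 9 other induced genes.

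ISL was given at 30 mg/kg in 12 weekly oral doses, by gavage under anesthesia. The paper's methods put the last bleed, at week 18, 6 weeks after dosing had stopped. Each macaque was bled before the first dose, at week 12 of dosing and at week 18. This gave 15 libraries, 5 per time point. No untreated macaques were sequenced, and every week 12 and week 18 library came from an animal that had also given the pre-treatment library. The labels name the animals Z15228, Z13076, Z15339, Z15303 and Z15408, and values are listed in that order throughout. The dates in the library names put the later samples 56 or 57 and 84 days after the first of the same animal, which is less than 12 and 18 weeks. By these dates the later samples were also less than 6 weeks apart, and a figure caption of the paper gives a shorter washout than its methods. Z15339, Z15303 and Z15408 share their dates at each time point. Total counts ranged from 5610597 to 10379572 per library, and those of Z15303 at week 12 (5610597) and week 18 (5886482) were the lowest. Markers of leukocytes, T cells, B cells, NK cells and monocytes were all present, as PBMCs should hold, and so were some neutrophil granule transcripts: of 7 neutrophil markers *CAMP* stood at 42.6 to 227 CPM, *LTF* reached 71.04 CPM and *MMP9* 16.4 CPM, and the highest values of *MPO*, *ELANE*, *MMP8* and *ARG1* were 8.62, 3.22, 1.83 and 1.46 CPM. Levels are given as CPM, counts scaled to a common library size with edgeR's TMM factors, so that they can be compared for 1 gene between libraries but not between genes of different length. In a mixture of cells, a lower level can come from fewer cells of a type or from less RNA per cell, and these cannot be told apart here.

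One library stood apart from the rest. Before treatment, the PBMCs of Z15303 carried more ISG transcripts than any other sample, and neither later sample of the same animal had this excess. The 37 genes took up 0.532% of all counts in that library, against 0.211% to 0.333% in the other 14. Of the 37, 24 (64.9%) had their highest level there, whereas 3.76% of the 12880 tested features did. The number was 23 with library size alone and 24 with DESeq2 size factors or a smaller prior count. Of the 12 features with the widest gap on the log2 scale between that library and the next highest one, 10 were ISGs from the list, and the other two carried an Ensembl identifier that the table pairs with no name. The macaques bled on the same date, Z15339 and Z15408, had no such excess: 1 and 3 of the 37 genes were highest in their pre-treatment libraries. The pre-treatment library of Z13076 came next, being highest for 4 genes and highest or second for 14. Against the 4 other pre-treatment libraries alone, a gap of more than 0.71 of the whole range was taken to mark a sample far from the rest. On the log2 CPM scale Z15303 was that far above the others in 1 of the 37 genes, *IFIT5*, and in 0.233% of features. On the CPM scale, an alternative added after the data were seen, it was so in 9 of the 37 genes and 0.606% of features: *IFIT5*, *RSAD2*, *CMPK2*, *IFIT3*, *MX1*, *HERC5*, *HERC6*, *IFI6* and *IFI44L*.

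**Figure D1:**
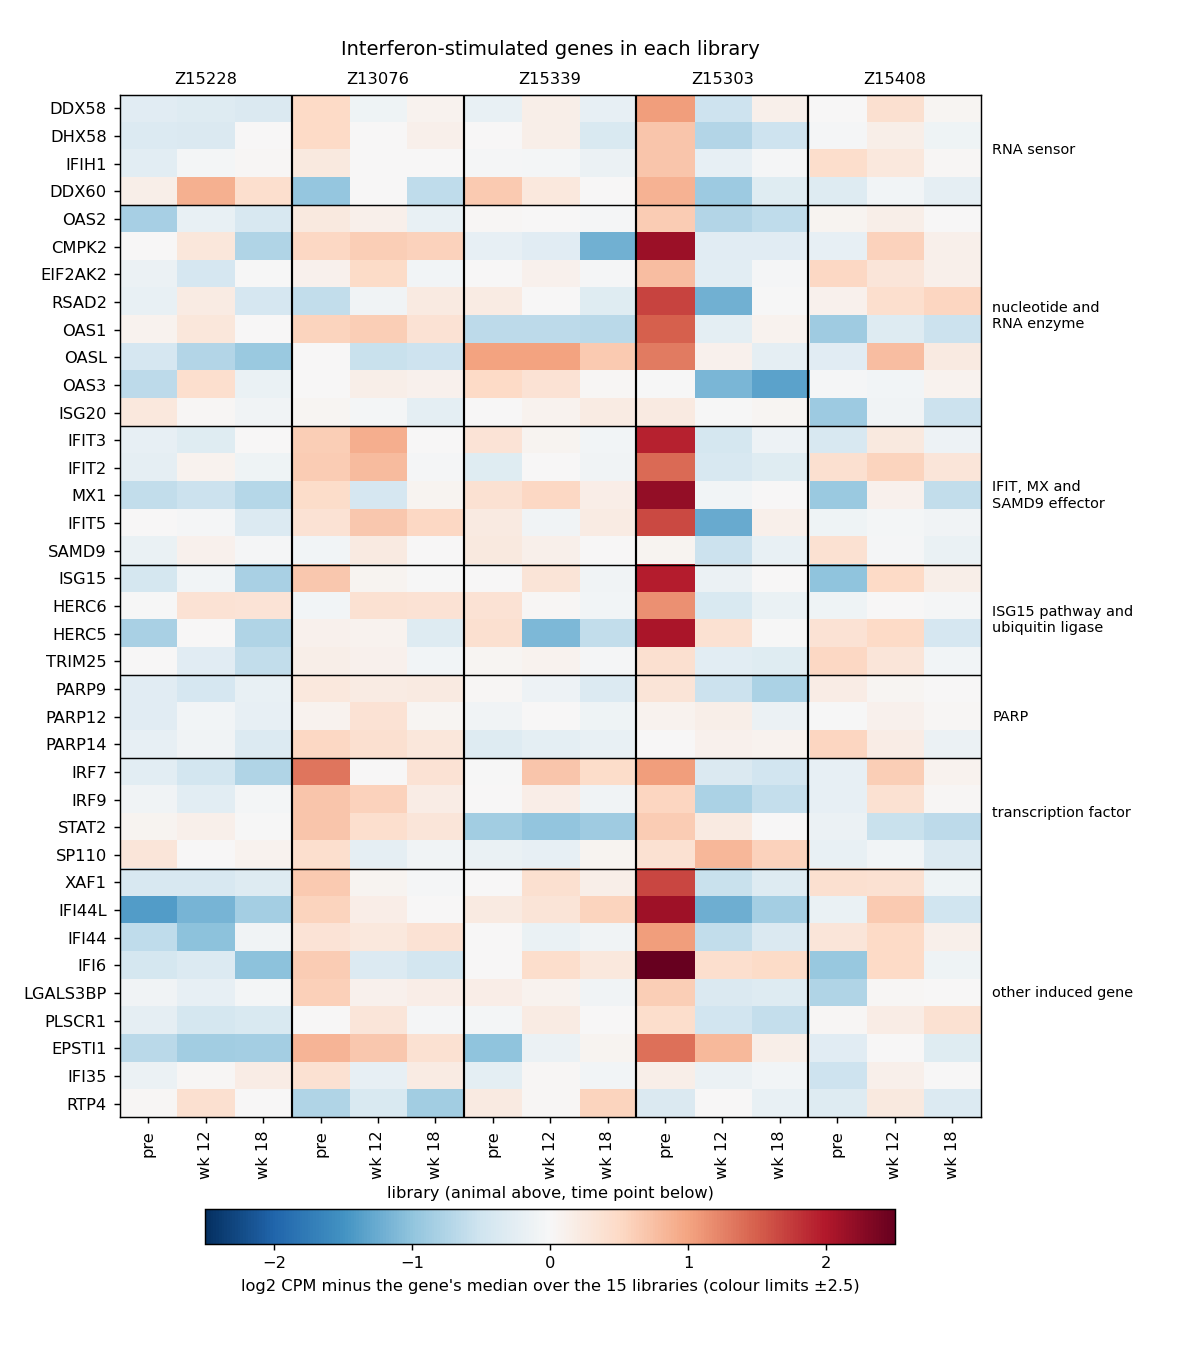
Each row is 1 of the 37 ISGs, grouped by role, and each column 1 of the 15 libraries, grouped by animal. Colour gives the log2 of the CPM minus the gene's median over the 15 libraries. The pre-treatment column of Z15303 is the darkest red, with 24 of the 37 genes at their highest level, while STAT2, SP110, OAS3, RTP4, PARP12 and PARP14 are highest in other libraries.

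The genes with the widest gap were antiviral effectors and their helpers. *IFI6*, a small membrane protein of the endoplasmic reticulum and mitochondria, stood at 160.4, 338, 219, 1369 and 114 CPM before treatment, 173, 173, 298, 293 and 311 CPM at week 12 and 108, 159, 262, 306 and 203 CPM at week 18. The pre-treatment level of Z15303 was 4.05 times the highest of the other 14 libraries. At week 12 the level of that animal lay within the range of the other animals. At week 18 it was the highest of that time point, at 306 CPM against at most 262 CPM in the other animals. It was still below their highest pre-treatment level, 338 CPM. *MX1*, a dynamin-like GTPase that traps viral nucleocapsids, stood at 90.4, 192, 182, 642 and 73.05 CPM before treatment, 96.7, 104, 201, 133 and 151 CPM at week 12 and 85.3, 146, 157, 139 and 90.8 CPM at week 18. Here the pre-treatment library of Z15303 was 3.19 times the next highest, and the remaining 14 ran from 73.05 to 201 CPM.

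*HERC5*, the ligase that attaches ISG15 to proteins in human cells, stood at 4.52, 8.46, 10.39, 32.6 and 10.2 CPM before treatment, 7.89, 8.43, 3.64, 10.3 and 11.1 CPM at week 12 and 4.66, 6.35, 5.15, 7.80 and 5.87 CPM at week 18. *CMPK2*, a mitochondrial nucleotide kinase, stood at 5.65, 8.13, 4.89, 24.97 and 4.91 CPM before treatment, 6.85, 8.67, 4.64, 4.61 and 8.43 CPM at week 12 and 3.37, 8.42, 2.46, 4.61 and 6.20 CPM at week 18. *IFI44L*, an ISG of uncertain biochemical function, stood at 1.95, 7.56, 5.97, 22.2 and 4.57 CPM before treatment, 2.28, 5.78, 6.40, 2.21 and 8.03 CPM at week 12 and 2.85, 5.13, 7.50, 2.84 and 3.65 CPM at week 18. In these 3 genes the pre-treatment library of Z15303 exceeded the next highest 2.93-fold, 2.88-fold and 2.77-fold. Their counts per library were low, from 33 to 294 for *HERC5* and from 12 to 200 for *IFI44L*, so that differences among the other 14 libraries are poorly resolved. *ISG15* itself, the ubiquitin-like protein, was named after its values were seen and reached 82.1 CPM in that library, against 10.5 to 33.6 CPM in the others. *CMPK2*, *HERC5*, *MX1*, *IFI6* and *IFI44L* were the 5 genes with the widest spread, with SDs of log2 CPM of 0.74 to 0.88 over the 15 libraries. The median SD was 0.50 over the 37 genes (0.38 without the pre-treatment library of Z15303) and 0.32 over all tested features.

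**Figure D2:**
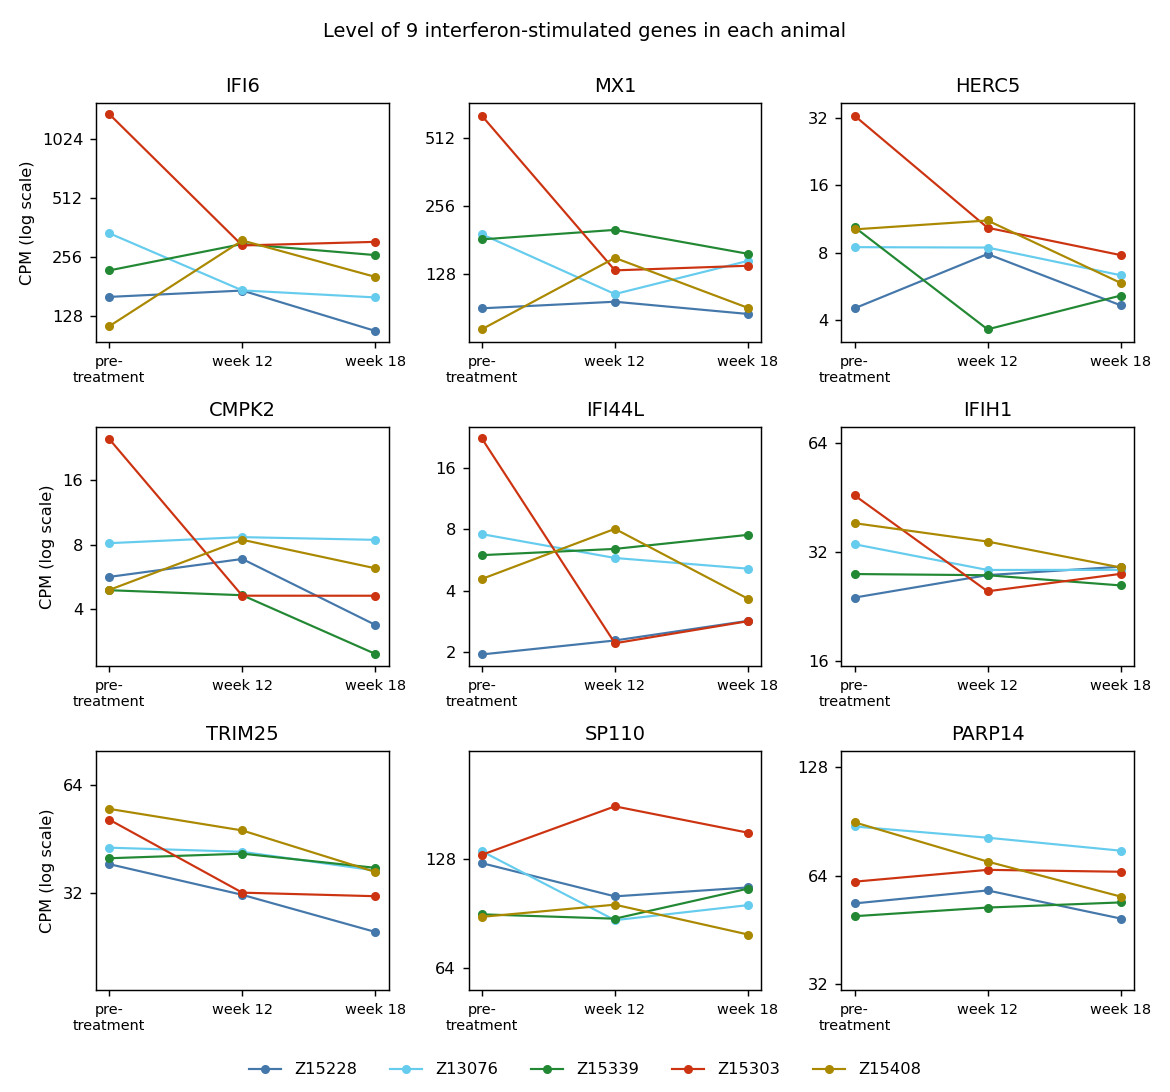
CPM on a log scale at pre-treatment, week 12 and week 18, with 1 line per animal, for the 5 ISGs with the widest spread (IFI6, MX1, HERC5, CMPK2, IFI44L) and for IFIH1, TRIM25, SP110 and PARP14. The red line of Z15303 starts far above the rest in the first 5, at 1369 CPM for IFI6 and 642 CPM for MX1, and joins the other animals at week 12, while TRIM25 at week 18 was below its own pre-treatment level in 5 of 5 animals.

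Among the RNA sensors the excess was smaller. *IFIH1*, which encodes MDA5, a receptor for long double-stranded RNA, stood at 23.9, 33.6, 27.8, 45.9 and 38.5 CPM before treatment, 27.6, 28.5, 27.6, 24.9 and 34.2 CPM at week 12 and 29.1, 28.6, 25.9, 27.8 and 29 CPM at week 18. *DHX58*, which encodes LGP2, a regulator of that receptor, stood at 16.9, 30.4, 21.6, 35.1 and 21.1 CPM before treatment, 16.8, 21.7, 23.96, 12.9 and 23.9 CPM at week 12 and 21.8, 23.6, 16.7, 15.1 and 20.04 CPM at week 18. Both were highest in Z15303 before treatment, but only 1.19-fold and 1.16-fold above the next library. *DDX58*, which encodes RIG-I, a sensor of RNA ends, was likewise highest there, 1.46 times the next. *DDX60*, a helicase-like gene, was not, since Z15228 at week 12 reached 23.8 CPM against 23.6.

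Of the 8 nucleotide and RNA enzymes, 6 were highest in the pre-treatment library of Z15303. *OAS2*, one of the synthases whose oligoadenylates activate RNase L, stood at 77.04, 161, 139.9, 213 and 144 CPM before treatment, 121, 149, 137, 82.1 and 151 CPM at week 12 and 104, 121, 135, 88.5 and 137 CPM at week 18. *ISG20*, a 3′ exonuclease, stood at 289, 251, 241, 280.3 and 128 CPM before treatment, 246, 233, 256, 238 and 229 CPM at week 12 and 226, 205, 278, 248 and 167 CPM at week 18. The gap was 1.32-fold for *OAS2*, whereas for *ISG20* the highest library was that of Z15228 before treatment and the lowest that of Z15408 on the same occasion. *OAS1* and *RSAD2*, the gene of viperin, exceeded the next library 1.83-fold and 2.24-fold. *OASL* and *EIF2AK2*, the gene of the kinase PKR that stops translation, did so 1.23-fold and 1.19-fold. *OAS3* went its own way: it was highest in Z15339 before treatment at 93.8 CPM and lowest in Z15303 at week 18 at 26.2 CPM.

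The IFIT proteins bind viral RNA and stall its translation. *IFIT2* stood at 30.7, 55.6, 29.1, 95.2 and 47.5 CPM before treatment, 38.3, 62.1, 35.9, 27.1 and 52.7 CPM at week 12 and 33.1, 35.4, 33.7, 29.3 and 44.3 CPM at week 18. *IFIT3* and *IFIT5* were 2.03 and 1.95 times as high in Z15303 before treatment as in the next library, and *IFIT2* 1.53 times. *SAMD9*, an antiviral factor, stood at 18.2, 19.4, 24.1, 21.4 and 26.6 CPM before treatment, 22.2, 23.9, 22.3, 14.2 and 19.96 CPM at week 12 and 20.2, 20.5, 20.5, 18.1 and 18.4 CPM at week 18. Its spread was among the smallest of the 37 (SD of log2 CPM 0.21), and Z15303 before treatment was at neither end of the range.

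In the ISG15 pathway and among the ligases, *HERC6*, a relative of *HERC5*, stood at 27.6, 26.6, 35.6, 61.5 and 25.7 CPM before treatment, 35.7, 36.4, 28.3, 21.2 and 27.8 CPM at week 12 and 35.2, 35.5, 26.6, 24.6 and 27.2 CPM at week 18. It was 1.69 times the next library in Z15303 before treatment, and the other 14 libraries held within 21.2 to 36.4 CPM. *TRIM25*, a ubiquitin ligase that acts on the RIG-I pathway, stood at 38.5, 42.8, 39.99, 51.2 and 54.8 CPM before treatment, 31.7, 41.7, 41.2, 32.1 and 47.8 CPM at week 12 and 24.99, 36.98, 37.6, 31.4 and 36.6 CPM at week 18. Its highest library was that of Z15408 before treatment, and in each of the 5 animals week 18 lay below pre-treatment.

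The PARP genes of the list encode ADP-ribosyltransferases and a partner protein, and they barely shared the excess. *PARP12* stood at 56.8, 72.8, 64.5, 72.9 and 68.5 CPM before treatment, 65.7, 88.04, 68.9, 76.4 and 74.4 CPM at week 12 and 60.1, 71.5, 64.2, 62.1 and 70.1 CPM at week 18. *PARP14* stood at 53.6, 87.6, 49.4, 61.6 and 89.95 CPM before treatment, 58.2, 81.5, 52.2, 66.4 and 70.02 CPM at week 12 and 48.7, 75.1, 53.96, 65.6 and 56.02 CPM at week 18. *PARP12* had the smallest spread of all 37 genes (SD of log2 CPM 0.16), and *PARP14* was higher in Z13076 than in Z15228, Z15339 or Z15303 at each time point. *PARP9* was highest in Z15303 before treatment, but only 1.05-fold above the next library.

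None of the 4 transcription regulators was highest in that library. *IRF9*, the DNA-binding partner of STAT2, stood at 152, 264, 163, 237 and 140.5 CPM before treatment, 135, 242, 184, 94.1 and 212 CPM at week 12 and 158, 185, 153, 108 and 167 CPM at week 18. *SP110*, a nuclear body protein, stood at 125, 134, 89.9, 131 and 88.5 CPM before treatment, 101, 86.6, 87.4, 179 and 95.6 CPM at week 12 and 107, 95.3, 106, 151 and 79.04 CPM at week 18. *IRF9*, *IRF7* and *STAT2* were highest in Z13076 before treatment, and for *IRF7* and *STAT2* the pre-treatment library of Z15303 came second. By contrast *SP110* was highest in Z15303 at week 12, when most of the effectors of that animal were low. *STAT2*, named after its values were seen, stood at 80.2, 124, 41.5, 118 and 68.7 CPM before treatment, 83.2, 102, 38.4, 88.6 and 52.1 CPM at week 12 and 76.01, 94.3, 41.3, 76.3 and 48.3 CPM at week 18. At every time point it was highest in Z13076 and lowest in Z15339, and 89.6% of its sum of squares on the log2 scale lay between animals.

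Of the other induced genes, *LGALS3BP*, a secreted glycoprotein, stood at 427, 681, 503, 687 and 269 CPM before treatment, 389, 486, 479.5, 352 and 459.8 CPM at week 12 and 438, 506, 422, 362 and 451 CPM at week 18. *IFI35*, a cytoplasmic ISG product, stood at 177, 253, 165, 215 and 136 CPM before treatment, 200.2, 170.3, 198, 176 and 213 CPM at week 12 and 222, 226, 187, 186 and 195 CPM at week 18. *LGALS3BP* was nearly level in Z15303 and Z13076 before treatment (ratio 1.01 to the next library), and *IFI35* was among the 5 least variable members. *XAF1*, a gene that promotes apoptosis, and *IFI44*, *EPSTI1* and *PLSCR1*, the gene of a phospholipid scramblase, were all highest in Z15303 before treatment, by 2.01, 1.46, 1.45 and 1.04 times the next library. *RTP4*, a chaperone of membrane receptors, ran the other way, with 4.88 CPM in that library against a highest value of 9.18 CPM in Z15339 at week 18.

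Markers of other cells were read beside this excess. The 4 nonclassical monocyte markers in the table summed to 2082 CPM in the pre-treatment library of Z15303, 1.24 times the highest of the other 14 (954.3 to 1675 CPM), and 2 of the 4, *CSF1R* and *MS4A7*, were highest there. Classical monocyte markers (8 genes) summed to 2073 CPM there, within the 1008 to 4198 CPM of the other libraries. Plasmacytoid dendritic cell markers (6 of 8 listed, the cells that make most type I interferon in blood) summed to 231 CPM, within 149 to 398 CPM, with none highest there. These markers did not move together: *LILRA4* ranked 3 of the 15 libraries there and *PTCRA* 15, and *IRF8* alone gave 122 CPM of the sum. T cell, B cell, NK cell, neutrophil, platelet and leukocyte marker sums all lay within the range of the other 14 libraries as well. Red blood cell markers (3 genes) summed to 254 CPM, within 42.4 to 806 CPM, and *AHSP*, 1 of the 3, was highest there at 2.11 CPM. The part of the nonclassical monocyte markers in the excess was not tested.

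The first comparison asked whether the ISGs differed between week 12 of ISL and pre-treatment. None of the 37 genes passed an adjusted p of 0.05 by edgeR's quasi-likelihood test, in which 0 of the 12880 features (0%) passed, and the smallest adjusted p among the 37 was 1.0. Fold changes were negative for 32 of the 37, with a median of −0.25 on the log2 scale beside 0.00 over all tested features. Without the pre-treatment library of Z15303, 18 were negative and the median was 0.00. Without the animal altogether, 12 were negative and the median was 0.10. That library was singled out because its mean log2 CPM over the same 37 genes lay farthest from the median library. Part of the shift on leaving it out was thus set by that choice. At an unadjusted p under 0.05, 0 of the 37 were found, against 207 features (1.61%). These fits had no term for the animal, so standing differences between animals counted as spread in them. edgeR's biological coefficient of variation was 29.3% in the fit of all 15 libraries and 16.9% with a term for each animal (the block). The model with the block passed 1 feature (0.00776%) after adjustment and none of the 37 genes. In it *STAT2* alone among the 37 had an unadjusted p under 0.05, against 4.69% of features.

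The fold changes of the 5 genes with the widest spread rested largely on 1 library. The same library widened the spread by which they were picked, so this dependence was partly set by the choice. The SD of log2 CPM of *IFI6* was 0.87 with it and 0.54 without it. *IFI6* had a log2 fold change of −0.82 ± 0.53 (SE) at week 12 and −1.08 ± 0.54 at week 18, which became 0.26 and −0.0027 without the pre-treatment library of Z15303. For *MX1* it was −0.78 ± 0.45 (SE) at week 12 and −0.93 ± 0.46 at week 18, and 0.029 and −0.12 without that library. The estimates for *HERC5* were −0.68 ± 0.42 (SE) at week 12 and −1.15 ± 0.43 at week 18, and −0.018 and −0.49 without it. Leaving out 1 of the 15 libraries thus removed most or all of each week 12 difference in these 3 genes, and turned the sign for *IFI6* and *MX1*. For *CMPK2* the values were −0.54 ± 0.45 (SE) at week 12 and −0.95 ± 0.46 at week 18, and 0.18 and −0.23 without the library. For *IFI44L* they were −0.76 ± 0.54 (SE) at week 12 and −0.93 ± 0.54 at week 18, and −0.0075 and −0.18 without it. The fits without that library kept the later libraries of Z15303. With the whole animal left out, *IFI6*, *MX1*, *HERC5*, *CMPK2* and *IFI44L* were at 0.21, 0.050, −0.095, 0.28 and 0.18 at week 12. At week 18 they were at −0.18, −0.16, −0.60, −0.20 and −0.058. In the fit of all 15 libraries without the block, every difference in these 5 genes was under 3 times its SE. With the block *HERC5* at week 18 was at −0.94 ± 0.30 (SE), with an edgeR adjusted p of 0.559.

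**Figure D3:**
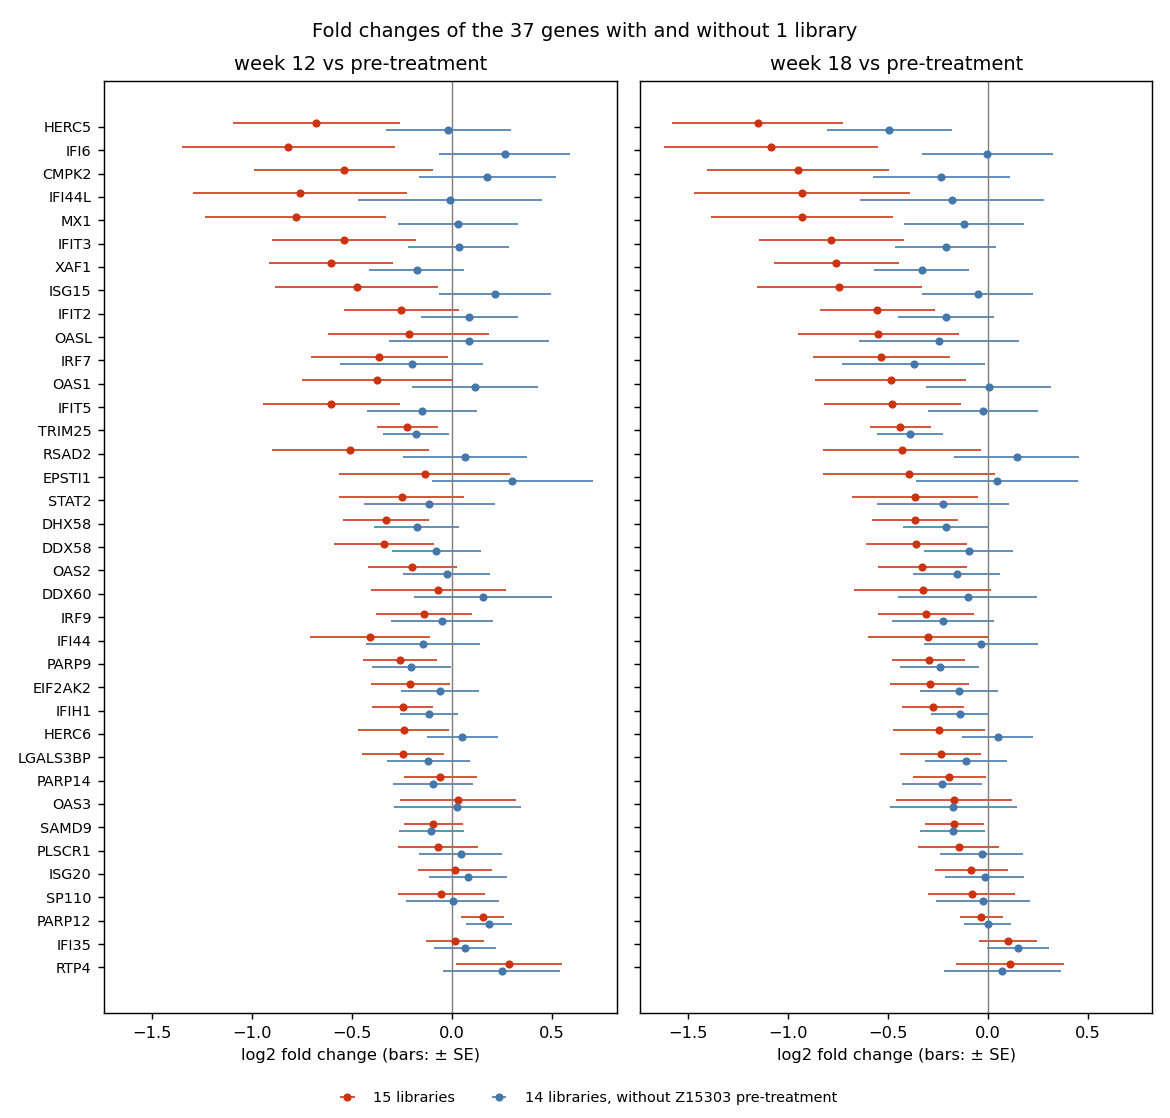
Log2 fold changes (points) with their SE (bars) of the 37 ISGs at week 12 and week 18 against pre-treatment, from all 15 libraries (red) and from 14 libraries without the pre-treatment library of Z15303 (blue). The red points run down to −1.15 for HERC5 at week 18, and most blue points lie nearer 0 than the red ones, while TRIM25 hardly moves (−0.44 and −0.39 at week 18).

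The second comparison set week 18, after dosing had stopped, against pre-treatment, and so shares its 5 pre-treatment libraries with the first. Again no feature (0%) and none of the 37 genes passed the adjusted threshold without the block, with a smallest adjusted p of 1.0 among them. In the model with the animal terms 1 passed (0.00776%), and the smallest adjusted p among the 37 genes was 0.374, for *TRIM25*. The median log2 fold change was −0.36, with 35 of 37 negative, and −0.14 with 31 negative without the pre-treatment library of Z15303, beside 0.00 over all features in both fits. At an unadjusted p under 0.05 the test found 4 of the 37, *HERC5*, *TRIM25*, *XAF1* and *IFIT3*, all lower, against 1.69% of features. Without that library 1 of the 4 was left, *TRIM25*, against 222 of 12986 features. With the block it found 7, *OASL*, *CMPK2*, *HERC5*, *TRIM25*, *PARP9*, *STAT2* and *XAF1*, against 5.85% of features. This count was 3 without the pre-treatment library of Z15303, against 691 of 12986 features. It was 1 without that animal, against 600 of 12878 features.

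*TRIM25* kept its estimate when single libraries were left out. Its log2 fold change at week 18 was −0.44 ± 0.15 (SE), with an unadjusted edgeR p of 0.0115, and −0.39 without the pre-treatment library of Z15303. Over all the fits that left out a library or an animal it ran from −0.53 to −0.35. Its level was lower at week 18 in 5 of 5 animals. The same held for *STAT2* and for no other of the 37 (5.41%), where 3.49% of all features were lower in all 5 animals. In Z15339 the change in log2 CPM was small, −0.088 for *TRIM25* and −0.0081 for *STAT2*. At week 12 only *PARP9* was lower in 5 of 5 (background 3.45%) and only *PARP12* was higher in 5 of 5 (background 2.21%). At week 18 none was higher in 5 of 5 (background 3.04%). *PARP12* had a log2 fold change of 0.15 ± 0.11 (SE) at week 12 and −0.032 ± 0.11 at week 18.

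A few members had estimates near or above 0. At week 12 the fold changes of *RTP4*, *PARP12*, *OAS3*, *IFI35* and *ISG20* were the 5 above 0, up to 0.29 ± 0.27 (SE) for *RTP4*. At week 18 those of *RTP4* and *IFI35* were the 2 above 0, at 0.11 ± 0.27 and 0.10 ± 0.14. B cell markers were read beside these comparisons, since they too were lower after pre-treatment: the median log2 fold change of the 7 tested was −0.87 at week 12 and −1.05 at week 18, with 3 and 4 at an unadjusted edgeR p under 0.05 and none past the adjusted threshold. The same medians were −0.19 and −0.32 for plasmacytoid dendritic cell markers and −0.20 and −0.06 for nonclassical monocyte markers. Their part in the ISG values was not tested.

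The third comparison, week 18 against week 12, does not use the pre-treatment libraries for its difference. No feature (0%) and none of the 37 genes passed, the median log2 fold change of the 37 was −0.13 beside 0.00 over all features, and 32 of 37 were negative. At an unadjusted p under 0.05 none of the 37 was found, either without the block (0.505% of features) or with it (2.17% of features; 0% passed the adjusted threshold).

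Within animals, the largest differences from pre-treatment were those of Z15303. In Z15303, 33 of the 37 genes were lower at week 12 and 34 at week 18, with median changes in log2 CPM of −1.37 and −1.21. At week 12, 23 of the 37 were lower by at least 1, where 4.15% of all features in that animal were. At week 18, 24 were, against 4.22% of features. The change at week 12 reached −3.19 for *IFI44L*, and *SP110* was the highest at 0.45.

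In Z15408 most of the genes were higher at week 12, 28 of 37, with a median change of 0.20. *ISG15*, *IFI6*, *MX1* and *OASL* were higher there by at least 1, where 2.38% of features were, and none was lower by as much (2.93% of features). By week 18, 34 of the 37 had a lower level in that animal than at week 12. The week 12 median changes in Z15228, Z13076 and Z15339 were 0.097, −0.10 and −0.0055. In these 3 animals 0, 1 and 1 of the 37 genes were lower by at least 1 (3.24%, 4.02% and 1.79% of features), *IRF7* in Z13076 and *HERC5* in Z15339. At week 18 the median changes in Z15228, Z13076, Z15339 and Z15408 were 0.039, −0.29, −0.050 and 0.033, with 18, 29, 25 and 17 of the 37 genes lower. Median changes over all features stayed between −0.04 and 0.02 in every animal.

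**Figure D4:**
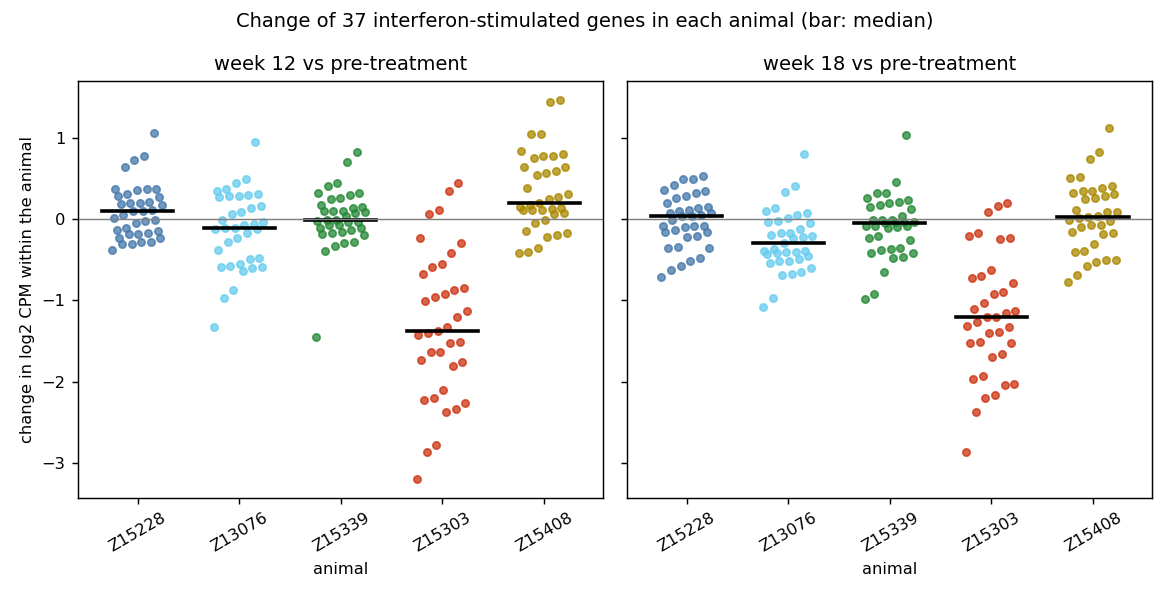
Change in log2 CPM within each animal at week 12 (left) and week 18 (right) against its own pre-treatment library, with 1 point per ISG (37 per animal) and a bar at the median. The points of Z15303 lie mostly below 0, with medians of −1.37 and −1.21, and the medians of the other 4 animals lie between −0.29 (Z13076 at week 18) and 0.20 (Z15408 at week 12).

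Some genes differed in mean level between animals. A test of the animal terms in edgeR, with the time point in the model, passed 9 of the 37 genes (24.3%) at an adjusted p of 0.05, against 30.9% of all features. These were *OAS1*, *OASL*, *MX1*, *HERC5*, *PARP14*, *STAT2*, *SP110*, *IFI6* and *EPSTI1*. A pass does not mean that each animal kept a steady level: *IFI6* in Z15303 went from 1369 CPM to 293 and 306 CPM. Without the pre-treatment library of Z15303, 20 of the 37 passed, against 34.8% of features, and *HERC5* and *IFI6* were no longer among them. The share of a gene's sum of squares between animals had a median of 40.3% over the 37 and 51.9% over all features, and the share between time points had medians of 8.84% and 6.23%. *STAT2*, *EPSTI1* and *PARP14* had the largest shares between animals, at 89.6%, 77.1% and 74.5%, and *HERC6* the smallest, at 8.91%.

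The last question was which ISGs varied together. Each gene's log2 CPM was correlated with the mean of the other 36 over the 15 libraries, which come from 5 animals and are not independent, so the values are given as a description. Pearson's r was at least 0.7 for 19 of the 37, and 0.318% of all tested features, the ISGs included, reached it with the mean of all 37. The highest were *IFIT3* at 0.93, *XAF1* at 0.92, *IFI44L* at 0.90 and *DDX58* at 0.89. The sensors *IFIH1*, *DDX58* and *DHX58*, the effectors *IFIT2*, *IFIT3*, *IFIT5* and *MX1*, and *ISG15*, *IRF7* and *IRF9* were all in this set.

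The set was smaller without the library that stood apart, which was picked by the mean of these same genes. Over the 14 other libraries 9 genes kept an r of at least 0.7, against 1.95% of all features: *DDX58*, *DHX58*, *OAS2*, *IFIT2*, *IFIT3*, *IRF7*, *IRF9*, *IFI44L* and *XAF1*. *IRF9* then had the highest r, 0.86, up from 0.73. *IFI6* went from 0.77 to 0.33, *MX1* from 0.83 to 0.50 and *HERC6* from 0.70 to 0.21. *HERC5*, *RSAD2* and *OAS1* ended at 0.18, 0.23 and 0.15. After each animal's mean was taken out, 27 of the 37 had an r of at least 0.7 over the 15 libraries, led by *OAS1* at 0.97, whose uncentred r was 0.61. Without the pre-treatment library of Z15303, in a count added after the data were seen, 5 did: *OAS1* (0.79), *IRF9* (0.79), *IFI6* (0.77), *ISG15* (0.75) and *MX1* (0.74). The share of all features was not computed for these within-animal counts, so they do not set the ISGs apart from other genes.

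**Figure D5:**
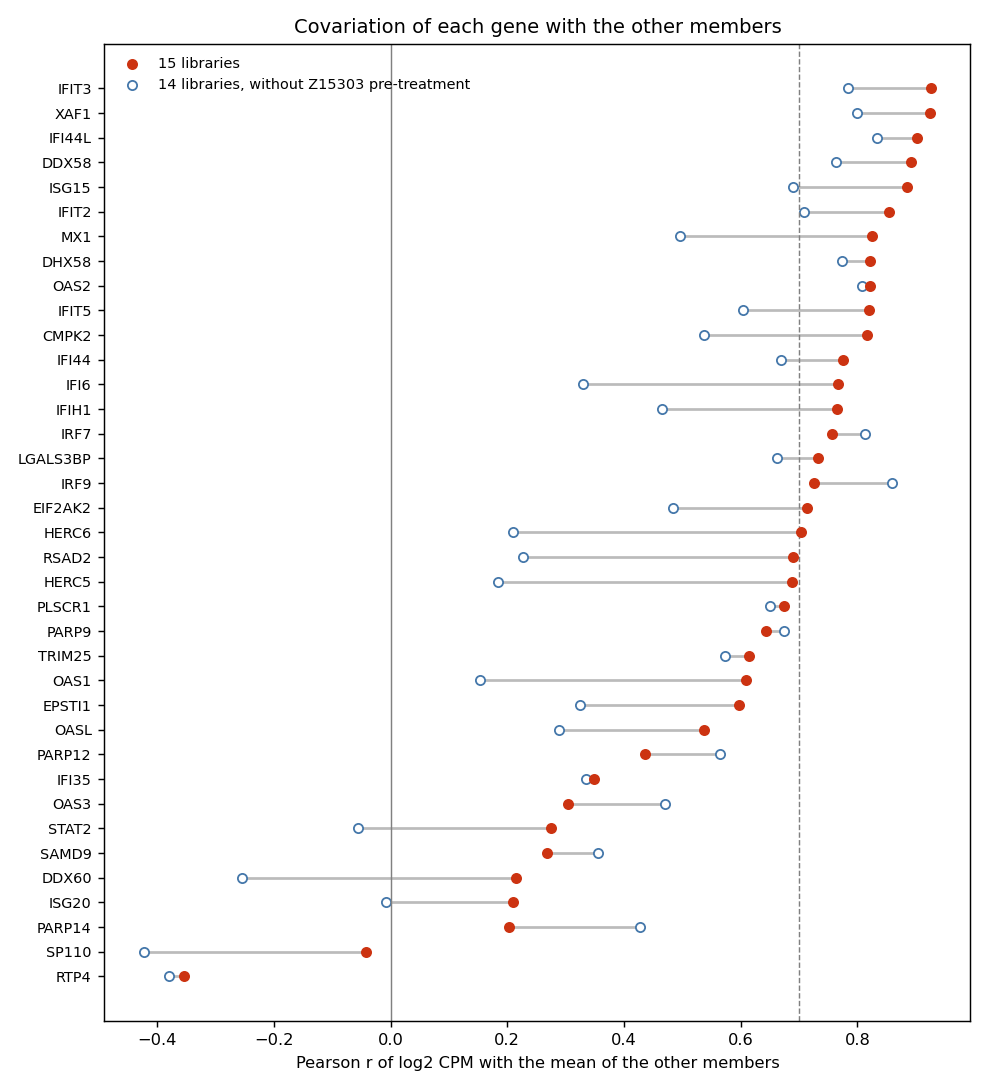
Pearson r of each gene's log2 CPM with the mean of the other 36 ISGs over 15 libraries (filled red) and over the 14 libraries without the pre-treatment library of Z15303 (open blue), with a dashed line at 0.7. On the filled points 19 genes lie at or right of the line and on the open points 9, and SP110 and RTP4 lie left of 0 on both.

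The genes with an r under 0.35 over the 15 libraries were *RTP4* (r −0.35), *SP110* (−0.041), *PARP14* (0.20), *ISG20* (0.21), *DDX60* (0.21), *SAMD9* (0.27), *STAT2* (0.27), *OAS3* (0.30) and *IFI35* (0.35). With each animal's mean taken out, *DDX60*, *OAS3* and *STAT2* reached 0.74, 0.73 and 0.60 over the 15 libraries, and 0.19, 0.056 and −0.032 over the 14. Over all 666 pairs the median r was 0.44, and 0.27 without the library that stood apart. The tightest pair was *IFI44L* and *XAF1* (r 0.93, and 0.88 over 14 libraries), followed by *ISG15* and *IFI6* (0.93 and 0.82). *DHX58* and *IRF9* held at 0.88 and 0.89. The lowest was *OAS3* with *SP110* (−0.79, and −0.83 over 14 libraries).

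The pathway upstream of these genes was read from lists of ligands, receptors and signalling genes, sensors, other ISGs and genes induced mainly by interferon gamma. None of their tested genes passed an adjusted p of 0.05 at any comparison, with or without the block: 0 of 1 ligand, 0 of 10 receptor and signalling genes, 0 of 16 sensing genes, 0 of 30 other ISGs and 0 of 10 interferon gamma genes. Of 17 ligands listed, 6 were found under these names, and most type I interferon genes of the list were not among them. The type I interferon transcripts that could be read were at the limit of detection. *IFNB1* and *IFNA14* had 1 count in all 15 libraries together, and *IFNA6* and *IFNE* had none, where 3 counts, the limit that a count of 0 allows, correspond to 0.289 to 0.535 CPM. *IFNL1*, a type III interferon, had 1 to 8 counts per library, and *IFNG*, the gene of interferon gamma, had 4 to 24. *IFNAR1*, *IFNAR2* and *IFI27* were not found under these names and were not analysed here.

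*SOCS3* and *SOCS1*, feedback inhibitors of the receptor's kinases, had r values of −0.11 and −0.17 with the mean of the 37. *SOCS3* was lower at week 12 at an unadjusted p of 0.0268 by edgeR (log2 fold change −1.07), and did not pass the adjusted threshold. Of the sensing genes, the widest spread was in *TLR7*, *TLR3* and *CGAS*, with SDs of log2 CPM of 0.77, 0.47 and 0.46, and their counts per library went down to 2, 8 and 59.

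Of the 30 other ISGs tested, 4 were highest in the pre-treatment library of Z15303, against 3.76% of all tested features. An r of at least 0.7 with the mean of the 37 was reached by 3, against 0.318% of features. *MX2*, the relative of *MX1* that restricts lentiviruses in primates, stood at 104, 222, 119.6, 254 and 177 CPM before treatment, 123, 184, 132, 109 and 212 CPM at week 12 and 111, 214, 119, 101 and 191 CPM at week 18. It was highest in that library, with Z13076 before treatment next, and its r was 0.76 over 15 libraries and 0.77 over 14. *TRIM14* and *GBP3*, named after their values were seen, had r values of 0.75 and 0.70. *SIGLEC1*, a monocyte ISG with 8 to 68 counts, was also highest there, at 7.55 CPM, level with Z15339 at week 18 at 7.50 CPM. *LAMP3* and *BATF2*, with at most 15 and 5 counts per library, were too low to test.

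None of the 10 tested genes induced mainly by interferon gamma was highest in the pre-treatment library of Z15303. Of all tested features 3.76% were, a share so small that 0 of 10 does not set these genes apart. *CXCL10*, a chemokine that both kinds of interferon induce, stood at 2.98, 11.2, 3.82, 7.43 and 4.22 CPM before treatment, 1.35, 5.18, 3.42, 3.14 and 6.42 CPM at week 12 and 1.94, 1.83, 4.70, 2.84 and 2.33 CPM at week 18. It was highest in Z13076 before treatment, with the pre-treatment library of Z15303 next. Its unadjusted edgeR p at week 18 was 0.0223, with a log2 fold change of −1.11 ± 0.44 (SE), and it did not pass after adjustment over the 12880 features. *IDO1*, an enzyme of tryptophan breakdown, had an r with the mean of the 37 ISGs that rounds to 0.70 but fell short of 0.7. It was also highest in Z13076 before treatment, while *CXCL9* had at most 4 counts per library.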

How the data were processed

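RNA from PBMCs was made into SMART-Seq v4 and Nextera XT libraries and sequenced as paired reads. The authors aligned the reads with STAR 2.7.9a to the pig-tailed macaque genome and deposited raw counts per gene. The strand setting is not given in the sources used here, so reads of a gene and of an antisense partner cannot be told apart. Libraries were grouped by time point from the labels, and the same 5 animals recur at each. Counts were filtered with filterByExpr (minimum 10), scaled by TMM and tested with edgeR 4.0.16 (quasi-likelihood, time point as the only term, all 15 libraries) in R 4.3.3, with Benjamini-Hochberg adjustment over 12880 features. Log2 CPM used a prior count of 2. The tests were checked on simulated data. Alternatives were the animal as a block, DESeq2 1.42.0, other scaling, no filter, and leaving out libraries or animals.

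The animal is known for each library. Deviations from the time point means correlated at a mean r of 0.55 in the 15 pairs of libraries from 1 animal (lowest 0.35) and −0.14 in the 60 other pairs. The members and the other gene lists were chosen with earlier results of these data known. The 19 members given in every library were the 2 of each role with the highest median CPM and the 5 with the largest and the 5 with the smallest SD of log2 CPM. Other members were named after their values were seen. Of the signalling list, 1 gene is not reported here.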

Additional observations from a re-analysis of the deposited data

Results flagged for a closer look

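On the log2 CPM scale, 1 library of a time point lay far from the other 4 in 5 cases, with a gap to the nearest of more than 0.71 of the whole range. The values are given in CPM. Before treatment, IFIT5 was high in Z15303 at 62.0 CPM and ISG20 was low in Z15408 at 128 CPM. At week 12, SP110 was high in Z15303 at 179 CPM. At week 18, OAS3 was low in Z15303 at 26.2 CPM and ISG15 was low in Z15228 at 12.0 CPM. Chance gives about 1 such case in 20 groups. Of all tested features, 6.11% at pre-treatment, 7.27% at week 12 and 5.99% at week 18 had such a library, and 2, 1 and 2 of the 37 ISGs did. On the CPM scale, added after the data were seen, the ISGs numbered 9, 1 and 1, against 7.16%, 9.19% and 7.91% of features. The 9 were all high in Z15303 before treatment, and the other two were SP110 and OAS3 as above.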

How the results depend on the processing

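None of the 37 ISGs passed an adjusted p of 0.05 in any of the 32 alternative settings of each comparison. With the animal as a replicate block, edgeR called 1 feature at week 12 and 1 at week 18, and DESeq2 called 23, 51 and 8 (week 18 against week 12). DESeq2 without the block called 1 at week 12. Leaving out libraries or animals without the block called 0 features in every comparison. With the block and an animal or library left out together, 0 to 6 features were called at week 12 and 0 to 17 at week 18, both highest without Z13076. Leaving out libraries or animals gave 2284 to 4755 features and 7 to 20 ISGs that differed between animals, and 9 to 24 ISGs with r of at least 0.7. Without the filter 23 ISGs differed between animals. Of 1216 fold changes of named genes, 79 had the opposite sign, all on leaving out a library or animal and 43 of them on leaving out Z15303 or its pre-treatment library. At week 12 these were ISG20 (−0.14 to 0.15), OAS2 (−0.37 to 0.14), MX1 (−1.05 to 0.12), IFIT2 (−0.42 to 0.24), HERC6 (−0.41 to 0.16), PARP14 (−0.15 to 0.063), IRF9 (−0.37 to 0.13), SP110 (−0.30 to 0.088), LGALS3BP (−0.43 to 0.0069), IFI6 (−1.16 to 0.26), CMPK2 (−0.81 to 0.28), IFI44L (−1.16 to 0.20), SAMD9 (−0.20 to 0.016) and IFI35 (−0.12 to 0.19). At week 18 these were ISG20 (−0.24 to 0.022), HERC6 (−0.40 to 0.12), PARP12 (−0.085 to 0.028), SP110 (−0.23 to 0.026), LGALS3BP (−0.41 to 0.0070) and IFI44L (−1.32 to 0.015). Other scaling moved the median of all features by at most 0.020. The causes were not tested. A planned search of promoters for motifs was not run, since promoter sequence was not analysed here. The 5 animals and no untreated group limit every comparison.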
